A study of Rattus norvegicus with 12 samples.

Results

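Prostaglandins and leukotrienes are short-lived lipid signals made from arachidonic acid, and the 10 genes described here encode proteins that take part in making or inactivating them. The genes were chosen by name: the phospholipase Pla2g4a, the cyclooxygenases Ptgs1 and Ptgs2, the prostaglandin synthases Ptges, Ptgds and Ptgis, the inactivating enzyme Hpgd, the lipoxygenases Alox5 and Alox15, and Alox5ap, the activating protein of 5-lipoxygenase. Of the 10 genes, 9 were found among the 34599 genes of the count table, and Ptgis was not analysed here. All 9 had enough counts to be tested.

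Total RNA was sequenced from the LV of 12 male Sprague-Dawley rats 1 day after surgery, the infarct region in ligated hearts, with 4 Sham rats, 4 MI rats and 4 iCarP+/Light+ rats. Sham rats underwent thoracotomy without coronary ligation, and in MI rats the left anterior descending coronary artery was ligated without further treatment. The iCarP+/Light+ rats had the same ligation, after which living Chlorella, single-celled algae that give off oxygen when lit, were injected into the infarcted wall, a patch was glued onto the epicardium and the heart was illuminated. Algae, patch, adhesive and illumination came together in this group and cannot be told apart in these samples, and rats with the patch but without light were not analysed here. The rats were 6 weeks old when obtained. Rats are named by the numbers in the sample labels, and each is a separate animal.

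In this pathway, cytosolic phospholipase A2 (Pla2g4a) frees arachidonic acid from membranes. Cyclooxygenases turn it into prostaglandin H, which terminal synthases convert into individual prostanoids, whereas 5-lipoxygenase, helped by its activating protein, turns it into leukotrienes that attract leukocytes. Ptgs1 is the constitutive cyclooxygenase and Ptgs2 the inducible one, and prostaglandins made by the latter take part in fever, pain and the early response to tissue injury.

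The total count per rat lay between 14064414 and 17136958. Mitochondrial genes took 22.8% to 28.9% of it in Sham rats, 8.52% to 11.5% in MI rats and 7.14% to 14.2% in iCarP+/Light+ rats. Levels are given as CPM, counts relative to the size of the library, after scaling of the libraries by the TMM method, which allows for differences in composition, and 3 counts in a library corresponded to 0.144 to 0.228 CPM. Cardiomyocyte markers, Myh6 and Tnnt2 among them, summed to 40943 to 45211 CPM in Sham rats, 2627 to 6018 CPM in MI rats and 2630 to 7035 CPM in iCarP+/Light+ rats, so the defining markers of the labelled tissue were detected in all groups. Differences were tested with edgeR's quasi-likelihood test, with Benjamini-Hochberg adjustment over 15101 genes and a threshold of 0.05, and fold changes are given on the log2 scale with the standard error (SE).

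From Sham to MI, 5 of the 9 genes rose (Ptgs2, Alox5ap, Ptges, Pla2g4a and Ptgs1), 3 fell (Ptgds, Alox15 and Alox5) and Hpgd did not pass the test. Of all genes tested, 30.2% rose and 33.6% fell in this comparison, so a change was common in the infarct at large. From MI to iCarP+/Light+, Ptgs2, Ptges, Alox5ap and Alox5 rose, none of the 9 fell and 5 did not pass the test. In that comparison 11.6% of all genes rose and 2.01% fell. From Sham to iCarP+/Light+, 4 of the 9 genes rose (Ptgs2, Ptges, Alox5ap and Pla2g4a) and none fell, against 33.5% of all genes that rose and 33.0% that fell. Over the 9 genes the median log2 fold change was 0.83, 1.41 and 0.46 in these comparisons, in this order, beside −0.06, 0.01 and 0.02 over all genes. The comparisons share rats: the MI rats are the treated side of the first and the reference of the second, and the third reuses both outer groups. The share of rises among all calls depended on the scaling. With total counts alone it was 73.5% in place of 47.3% from Sham to MI and 30.7% in place of 85.2% from MI to iCarP+/Light+. In the third comparison it was 64.7% in place of 50.3%. The median of all genes then lay at 0.52, −0.25 and 0.33.

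**Figure D1:**
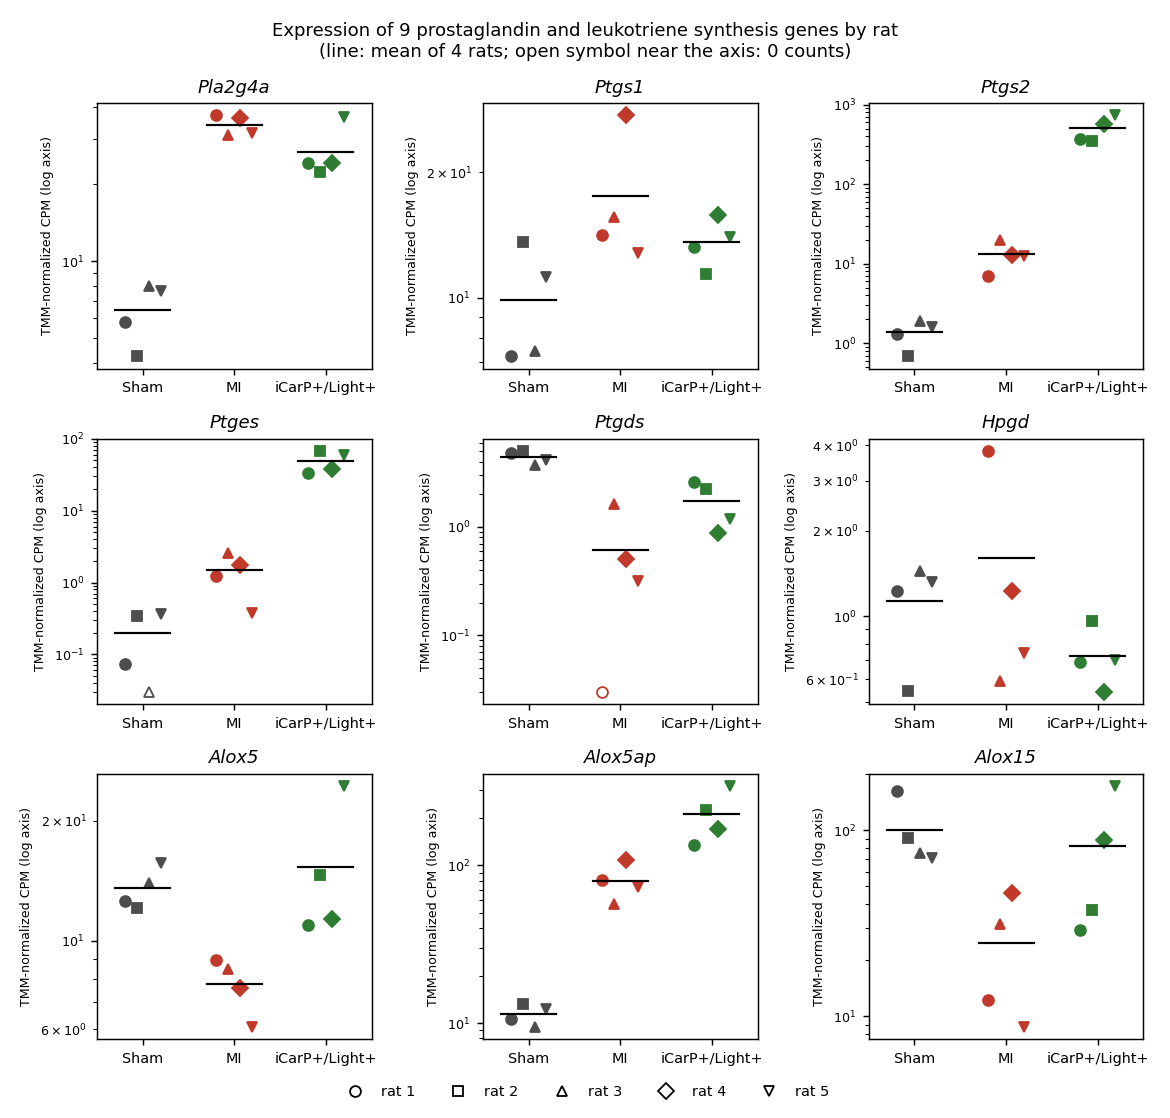
Level of each of the 9 genes in each rat, in TMM-normalized CPM on a log axis that differs between panels. Symbols give the rat number, colours the group, lines the mean of 4 rats, and open symbols near the axis mark 0 counts. The means of Ptgs2 and Ptges step up from Sham to MI and again to iCarP+/Light+, whereas that of Alox15 is lowest in MI.

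Ptgs2, the inducible cyclooxygenase (COX-2, ENSRNOG00000002525), lies on chromosome 13 at 67351087 to 67359335 on the plus strand, in the coordinates of the count table. It was low in Sham rats, with 1.30, 0.683, 1.90 and 1.62 CPM in rats 1, 2, 3 and 5 (10 to 25 counts each). In MI rats 1, 3, 4 and 5 it stood at 6.94, 20.01, 12.9 and 12.5 CPM, and in iCarP+/Light+ rats 1, 2, 4 and 5 at 371, 346, 573 and 733 CPM. No MI rat was as low as any Sham rat, and the iCarP+/Light+ rats lay above all MI rats by a wide gap. The group means were 1.38 ± 0.522 (SD, n = 4), 13.1 ± 5.36 (SD, n = 4) and 505.5 ± 182 CPM (SD, n = 4). The log2 fold change was 3.25 (SE 0.40, adjusted p = 1.18e-05, edgeR) from Sham to MI. It was 5.27 (SE 0.37, adjusted p = 3.13e-06, edgeR) from MI to iCarP+/Light+, a 38.7-fold difference. Ranked from the highest log2 fold change, Ptgs2 was number 57 of 15101 genes in that comparison. From Sham to iCarP+/Light+ the difference was 368-fold (log2 8.52, SE 0.45, adjusted p = 1.78e-08, edgeR). In these bulk samples a change in the number of cells of a type and a change in RNA per cell cannot be told apart, for this gene and those that follow.

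Ptges encodes microsomal prostaglandin E synthase-1, the inducible enzyme that works downstream of COX-2 to make prostaglandin E2, and it lies on chromosome 3 at 9727408 to 9738752 on the minus strand. Sham rats 1, 2, 3 and 5 held only 1, 5, 0 and 5 counts of it. In MI rats 1, 3, 4 and 5 the level was 1.24, 2.59, 1.73 and 0.372 CPM (7 to 48 counts), and in iCarP+/Light+ rats 1, 2, 4 and 5 it was 33.4, 68.1, 38.2 and 59.9 CPM (533 to 1127 counts). MI rat 5 was barely above the highest Sham rat, whereas the iCarP+/Light+ rats were far above all others. Ptges rose from MI to iCarP+/Light+ by a log2 fold change of 5.07 (SE 0.48, adjusted p = 2.01e-05, edgeR), 33.6-fold, and ranked number 61 of 15101 genes. From Sham to MI the fitted value was 2.85 (SE 0.71, adjusted p = 0.00322, edgeR) and from Sham to iCarP+/Light+ 7.92 (SE 0.62, adjusted p = 2.17e-07, edgeR). Both of the latter rest on Sham counts of 0 to 5, so their size depends on the small prior count that edgeR adds.

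Ptgs1, the constitutive cyclooxygenase (COX-1), was called in 1 of the 3 comparisons, from Sham to MI. It stood at 7.23, 13.6, 7.44 and 11.2 CPM in Sham rats 1, 2, 3 and 5, at 14.2, 15.6, 27.4 and 12.8 CPM in MI rats 1, 3, 4 and 5, and at 13.3, 11.4, 15.8 and 14.0 CPM in iCarP+/Light+ rats 1, 2, 4 and 5. MI rat 4 was the highest, and the ranges of MI and Sham rats overlapped. The rise from Sham to MI passed the test with a log2 fold change of 0.83 (SE 0.26, adjusted p = 0.0144, edgeR), and the difference from MI to iCarP+/Light+ did not (−0.36, SE 0.26, adjusted p = 0.433, edgeR). The rise was 0.53 without MI rat 4 (adjusted p = 0.0497, edgeR) and 1.38 with total counts alone (adjusted p = 3.86e-04, edgeR).

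The promoters of the pair that stepped up together and of the constitutive cyclooxygenase are shown for comparison, as the 250 bases before the annotated start of each gene, 5′ to 3′ on the strand of the gene. The sequences are from RefSeq on the GRCr8 assembly, whose coordinates differ from those of the count table. Promoters were found for 7 of the 9 genes. Capitals mark matches to 8 short motifs, searched on both strands. These were the box of promoter cores spelled TATAAA and its variant spelled TTTAAA, the E-box spelled CACGTG, the C/EBP-type site spelled GCAAT, the core of the cyclic AMP response element spelled TGACG, the GC box spelled GGGCGG, the core of the EGR1 site spelled GCGGGGGCG and the AP-1 site spelled TGANTCA.
Ptgs2, chr13:64713813-64714062, plus strand: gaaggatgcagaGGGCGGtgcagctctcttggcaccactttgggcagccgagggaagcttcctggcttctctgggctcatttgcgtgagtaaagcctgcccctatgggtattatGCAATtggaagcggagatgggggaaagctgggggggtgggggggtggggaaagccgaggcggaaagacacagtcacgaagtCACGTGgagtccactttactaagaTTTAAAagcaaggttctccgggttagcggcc
Ptges, chr3:34586988-34587237, minus strand: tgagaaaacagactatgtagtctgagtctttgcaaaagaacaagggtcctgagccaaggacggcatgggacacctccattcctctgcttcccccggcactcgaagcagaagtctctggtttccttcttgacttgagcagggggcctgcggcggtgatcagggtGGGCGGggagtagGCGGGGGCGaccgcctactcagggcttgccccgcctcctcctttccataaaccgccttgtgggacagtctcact
Ptgs1, chr3:39981169-39981418, plus strand: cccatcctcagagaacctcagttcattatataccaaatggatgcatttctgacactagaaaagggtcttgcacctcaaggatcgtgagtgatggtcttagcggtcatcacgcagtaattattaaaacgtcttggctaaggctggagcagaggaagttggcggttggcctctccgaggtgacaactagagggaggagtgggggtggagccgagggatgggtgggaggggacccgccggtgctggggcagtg

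Before the start of Ptgs2 lay TTTAAA at 31 to 26 bases, CACGTG at 55 to 50 bases, GCAAT at 136 to 132 bases and GGGCGG at 238 to 233 bases. Of 33469 promoters of the same length, 12.3% held TTTAAA, 5.59% CACGTG, 23.2% GCAAT and 30.5% GGGCGG. Ptges held GGGCGG at 87 to 82 bases and the longer GCGGGGGCG at 74 to 66 bases, which 2.45% of promoters held. Ptgs1 held none of the 8 motifs in this window. The box spelled TATAAA, the response element core and the AP-1 site, found in 12.9%, 18.2% and 6.34% of promoters, were in none of the 3 sequences. The motifs were chosen with the sequences in view, and a match describes letters, not a bound site.

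Per length, the leading cyclooxygenase differed between the groups. In RPKM, CPM per kilobase of the gene length in the count table, Ptgs2 stood at 0.0322 to 0.164 times Ptgs1 in the Sham rats and at 0.301 to 0.820 times Ptgs1 in the MI rats. In the iCarP+/Light+ rats it stood at 17.9 to 33.5 times Ptgs1. Thus Ptgs1 was the higher of the pair in all 8 Sham and MI rats, and Ptgs2 in all 4 iCarP+/Light+ rats. Ptgs2 had a mean of 0.315 RPKM in Sham rats, 2.99 RPKM in MI rats and 116 RPKM in iCarP+/Light+ rats, where it ranked 725 of 15101 genes.

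Among the prostaglandin E synthases, Ptges3 had the highest mean level per length in all 3 groups, and Ptges lay below Ptges2 in Sham and MI rats and above it in iCarP+/Light+ rats. Ptges2, the membrane-associated synthase that is expressed in many tissues, fell from 73.0 to 78.8 CPM in Sham to 30.2 to 39.5 CPM in MI rats (log2 fold change −1.20, SE 0.12, adjusted p = 2.98e-06, edgeR) and held 24.3 to 35.1 CPM in iCarP+/Light+ rats. Ptges3, a cytosolic synthase that also acts as the HSP90 co-chaperone p23, was at 123 to 132, 202 to 294 and 235 to 256 CPM in the Sham, MI and iCarP+/Light+ rats. In the treated rats, compared with MI, neither passed the test (Ptges2 log2 −0.16, adjusted p = 0.479; Ptges3 log2 −0.00, adjusted p = 0.995, edgeR). In RPKM, Ptges was at most 0.137 times Ptges2 in MI rats and 1.64 to 4.25 times Ptges2 in iCarP+/Light+ rats. It remained below Ptges3 there, at 0.186 to 0.384 times its level.

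**Figure D2:**
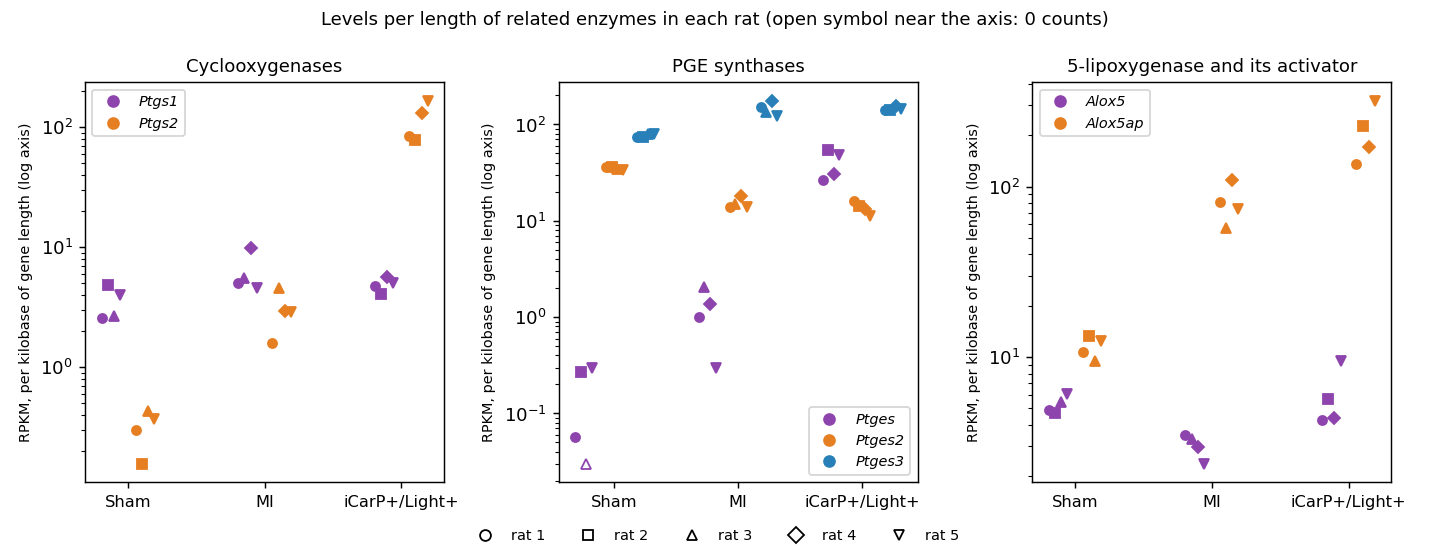
Level per length (RPKM, log axis) of related enzymes in each rat, with symbols for the rat number and colours for the gene, and open symbols near the axis for 0 counts. Ptgs2 passes Ptgs1 and Ptges passes Ptges2 in the iCarP+/Light+ rats, and Alox5ap lies above Alox5 in all 12 rats.

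Pla2g4a, the arachidonate-releasing phospholipase at the head of the pathway, rose with infarction and had no further call with treatment. It lies on chromosome 13 at 66988937 to 67206693, with 144393 bases and 1 listed gene between it and Ptgs2. Its level was 5.78, 4.23, 7.97 and 7.67 CPM in Sham rats 1, 2, 3 and 5, 37.2, 31.1, 36.2 and 31.7 CPM in MI rats 1, 3, 4 and 5, and 24.2, 22.3, 24.3 and 36.5 CPM in iCarP+/Light+ rats 1, 2, 4 and 5. Every infarcted rat was above every Sham rat, and iCarP+/Light+ rat 5 stood among the MI rats while the other 3 lay below them. The log2 fold change was 2.41 (SE 0.21, adjusted p = 7.52e-07, edgeR) from Sham to MI and 2.06 (SE 0.21, adjusted p = 2e-06, edgeR) from Sham to iCarP+/Light+. With treatment it was −0.34 relative to MI (SE 0.19, adjusted p = 0.297, edgeR). That difference passed the test with total counts alone (−0.62, adjusted p = 0.0238), where all genes had a median of −0.25.

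Ptgds, the lipocalin-type prostaglandin D synthase, went the other way with infarction. It had 67, 74, 49 and 56 counts in Sham rats 1, 2, 3 and 5 (3.72 to 5.05 CPM), 0, 30, 9 and 6 counts in MI rats 1, 3, 4 and 5 (up to 1.62 CPM) and 42, 37, 13 and 17 counts in iCarP+/Light+ rats 1, 2, 4 and 5 (0.881 to 2.63 CPM). All infarcted rats were below all Sham rats, and the 2 infarcted groups overlapped. It fell from Sham to MI (log2 −2.86, SE 0.70, adjusted p = 0.00295, edgeR), with −4.01 without MI rat 3 (adjusted p = 0.000302, edgeR). With treatment, from MI, the value was 1.52 (SE 0.70, adjusted p = 0.194, edgeR), and without MI rat 3, the highest of its group, it was 2.67 (adjusted p = 0.0235, edgeR). From Sham to iCarP+/Light+ it was −1.34 (SE 0.65, adjusted p = 0.0825, edgeR), a difference that passed the test when only the rats of these groups were fitted (−1.33, adjusted p = 0.00649, edgeR). It also passed in the fits without MI rat 1 (adjusted p = 0.021, edgeR) or MI rat 3 (adjusted p = 0.0363, edgeR), and by limma-voom (adjusted p = 0.0351).

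Hpgd, which oxidizes prostaglandins and so inactivates them, was scarce in all rats and was not called in any comparison. It stood at 0.546 to 1.44 CPM in Sham rats, 0.593 to 3.83 CPM in MI rats and 0.542 to 0.967 CPM in iCarP+/Light+ rats, with 8 to 80 counts. MI rat 1 was the highest with 80 counts, while the other MI rats had 11 to 22. The log2 fold change was 0.50 (SE 0.54, adjusted p = 0.435, edgeR) from Sham to MI and −1.14 (SE 0.56, adjusted p = 0.226, edgeR) from MI to iCarP+/Light+, and without MI rat 1 these were −0.40 and −0.23.

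Alox5ap encodes the 5-lipoxygenase-activating protein (FLAP), which presents arachidonic acid to 5-lipoxygenase. It lies on chromosome 12 at 6854920 to 6879154 on the minus strand. Its level was 10.6, 13.2, 9.41 and 12.2 CPM in Sham rats 1, 2, 3 and 5, 80.6, 56.6, 108 and 73.4 CPM in MI rats 1, 3, 4 and 5, and 134, 225, 169 and 317 CPM in iCarP+/Light+ rats 1, 2, 4 and 5. The 3 groups were fully separated, and iCarP+/Light+ rat 5 was the highest. Alox5ap rose 7.01-fold from Sham to MI (log2 2.81, SE 0.27, adjusted p = 1.7e-06, edgeR). It rose a further 2.65-fold from MI to iCarP+/Light+ (log2 1.41, SE 0.25, adjusted p = 0.00214, edgeR) and was 18.6-fold above Sham there (log2 4.22, SE 0.29, adjusted p = 8.04e-08, edgeR).

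Alox5, the 5-lipoxygenase itself, changed less and in a different order. Sham rats 1, 2, 3 and 5 had 12.6, 12.1, 14.0 and 15.6 CPM, MI rats 1, 3, 4 and 5 had 8.95, 8.47, 7.61 and 6.06 CPM, and iCarP+/Light+ rats 1, 2, 4 and 5 had 11.0, 14.6, 11.3 and 24.4 CPM. The MI rats were below all others, and the Sham and iCarP+/Light+ rats overlapped. It fell from Sham to MI (log2 −0.80, SE 0.24, adjusted p = 0.0104, edgeR) and rose from MI to iCarP+/Light+ (log2 0.98, SE 0.24, adjusted p = 0.0151, edgeR). The fall was −0.22 (adjusted p = 0.388) with total counts alone, and the rise was 0.58 (adjusted p = 0.0576) without iCarP+/Light+ rat 5 and 0.94 (adjusted p = 0.053) with only the rats compared in the fit, all by edgeR. Per length, Alox5ap stood at 1.75 to 2.83 times Alox5 in Sham, 17.4 to 36.8 times in MI and 31.8 to 40.0 times in iCarP+/Light+ rats, as RPKM.

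Alox15, the 12/15-lipoxygenase, which oxygenates arachidonic acid toward hydroxy acids and lipoxins, was the highest of the 9 genes per length in Sham rats (mean 45.2 RPKM). Its level was 163, 90.6, 75.2 and 71.3 CPM in Sham rats 1, 2, 3 and 5, 12.3, 31.4, 46.3 and 8.72 CPM in MI rats 1, 3, 4 and 5, and 29.2, 37.2, 88.5 and 173 CPM in iCarP+/Light+ rats 1, 2, 4 and 5. All MI rats were below all Sham rats, whereas the iCarP+/Light+ rats spread from the MI range to above the Sham range. It fell from Sham to MI (log2 −2.02, SE 0.61, adjusted p = 0.0104, edgeR). From MI to iCarP+/Light+ the value was 1.73 (SE 0.60, adjusted p = 0.0792, edgeR), and it was 2.23 (adjusted p = 0.0407) without MI rat 4, 2.01 (adjusted p = 0.0349) without iCarP+/Light+ rat 1 and 0.99 (adjusted p = 0.32) without iCarP+/Light+ rat 5, all by edgeR. From Sham to iCarP+/Light+ it was −0.29 (SE 0.58, adjusted p = 0.681, edgeR). Red blood cell markers moved alongside: of 7 tested, 5 fell from Sham to MI (33.6% of all genes) and 4 rose from MI to iCarP+/Light+ (11.6% of all genes). They summed to 10693, 8666, 7951 and 8200 CPM in Sham rats 1, 2, 3 and 5, to 2526, 5125, 7036 and 2657 CPM in MI rats 1, 3, 4 and 5, and to 10998, 6257, 15788 and 17640 CPM in iCarP+/Light+ rats 1, 2, 4 and 5. The rat with the highest sum was also the one with the highest Alox15 in each group, and the second highest matched as well. The remaining rats stood in the opposite order in each group. None of the 7 was at 0 in all rats of a group, and their part in the Alox15 differences was not tested.

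**Figure D3:**
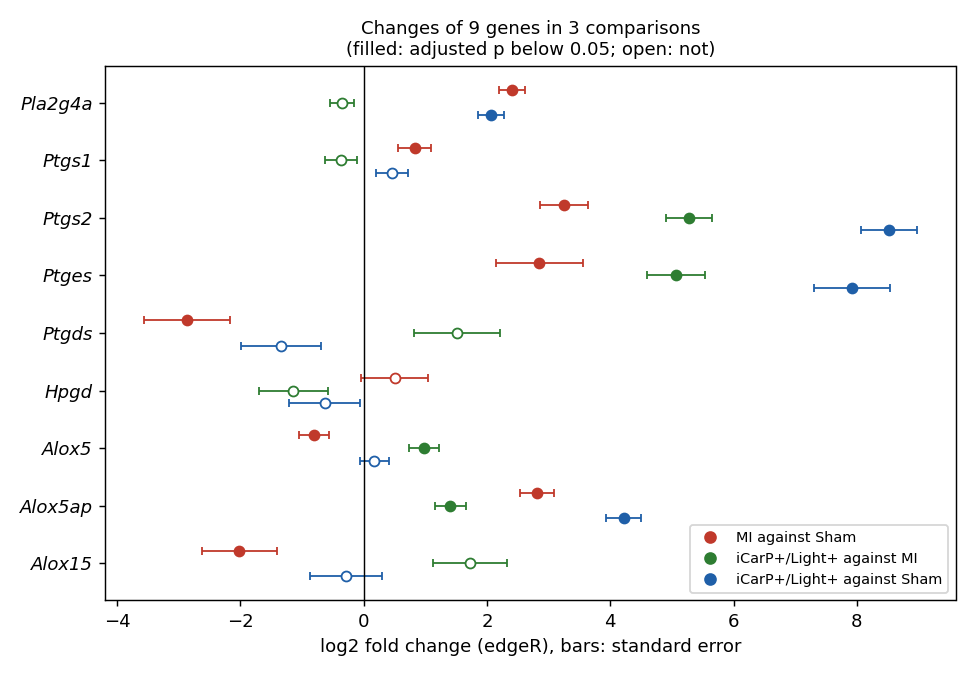
Log2 fold change of the 9 genes in the 3 comparisons, with the standard error as bars and filled symbols where the adjusted p of edgeR was below 0.05. Ptgs2 and Ptges have the largest values from MI to iCarP+/Light+ (5.27 and 5.07), and Alox5 and Alox15 are negative from Sham to MI and positive from MI to iCarP+/Light+, Alox15 there without passing the test.

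Other genes of the pathway were read from a list of 56, of which 53 were in the table and 45 could be tested. From Sham to MI 18 rose, 20 fell and 7 did not pass the test, with a median log2 fold change of −0.14. Those with the highest values among the rises were Ptger2 (4.83) and Ltb4r (4.55), receptors for prostaglandin E2 and leukotriene B4, Tbxas1 (3.94), the thromboxane synthase, Pla2g7 (3.69), which degrades platelet-activating factor, and Slco2a1 (2.91), the prostaglandin importer. Ltb4r was 3.70 without MI rat 4 and 5.55 without Sham rat 5. Tbxas1 went from 1.99 to 3.57 CPM in Sham to 38.1 to 55.4 CPM in MI rats (SE 0.24, adjusted p = 7.31e-08, edgeR). The lowest values were those of Ephx2 (−4.29) and Ephx1 (−3.04), the epoxide hydrolases, Dpep1 (−3.85), a dipeptidase that converts leukotriene D4, and the secreted phospholipases Pla2g5 (−3.73) and Pla2g2a (−2.93). Ephx2 went from 41.3 to 65.0 CPM in Sham to 0.783 to 4.84 CPM in MI rats (SE 0.51, adjusted p = 8.91e-06, edgeR). By role, 2 of the 9 tested genes of phospholipases and fatty acid release rose and 6 fell. Of the 5 terminal prostanoid synthases 3 rose and 2 fell, of the 5 genes of prostaglandin transport and inactivation 1 rose and 2 fell, and of the 7 genes of leukotriene synthesis and conversion 3 rose and 3 fell. None of the 4 other lipoxygenases and epoxide hydrolases rose and all 4 fell. Of the 8 prostanoid receptors 4 rose and 2 fell, of the 5 leukotriene and lipoxin receptors 4 rose and none fell, and of the 2 inhibitors 1 rose and 1 fell, beside 30.2% of all genes that rose and 33.6% that fell.

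From MI to iCarP+/Light+, 9 of the 45 rose, 1 fell and 35 did not pass the test, beside 11.6% of all genes that rose and 2.01% that fell, and the median log2 fold change was 0.15. With total counts alone 8 rose and 7 fell, where all genes had a median of −0.25. The leukotriene B4 receptor Ltb4r was at 0.273 to 2.58 CPM in Sham rats, 6.2 to 56.5 CPM in MI rats and 129 to 305 CPM in iCarP+/Light+ rats, with no overlap between the groups. It rose from MI to iCarP+/Light+ by 3.21 on the log2 scale (SE 0.60, adjusted p = 0.00298, edgeR). MI rat 4, at 56.5 CPM, stood above the other MI rats at 6.2 to 18.0 CPM, and without it the value was 4.07 (adjusted p = 0.000411, edgeR). The lowest value of Ltb4r with a rat left out was 2.89. The second leukotriene B4 receptor, Ltb4r2, rose by 3.07 (SE 0.50, adjusted p = 0.00104, edgeR) from 0.144 to 0.559 CPM to 2.13 to 3.32 CPM. On the prostanoid side, Ptger2 held 16.2 to 28.7 CPM in MI and 33.9 to 90.4 CPM in iCarP+/Light+ rats (log2 1.49, SE 0.33, adjusted p = 0.0075, edgeR).

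Among the synthases, Hpgds, the hematopoietic prostaglandin D synthase, rose from 0.431 to 1.40 CPM in MI rats to 3.19 to 13.9 CPM in iCarP+/Light+ rats (log2 3.03, SE 0.47, adjusted p = 7.46e-04, edgeR), while it had fallen from 2.66 to 3.76 CPM in Sham rats. Ggt1, a gamma-glutamyl transferase that acts on leukotriene C4, had 3 to 14 counts in MI and 11 to 166 counts in iCarP+/Light+ rats (log2 4.02, SE 0.77, adjusted p = 0.00334, edgeR), with 4.85 without MI rat 5 and 3.19 without iCarP+/Light+ rat 5. Of the phospholipases, Pla2g2a (1.92, adjusted p = 0.00636), Pla2g7 (0.99, adjusted p = 0.00276) and Pla2g6 (0.43, adjusted p = 0.0388) rose and the lysosomal Pla2g15 fell (−0.62, adjusted p = 0.0421), all by edgeR. Anxa1, annexin A1, which counters phospholipase A2 activity and leukocyte entry, rose by 1.13 (SE 0.21, adjusted p = 0.0029, edgeR) from 194 to 311 CPM to 345 to 696 CPM. With a rat left out, the value of Pla2g6 lay between 0.37 and 0.48 and that of Pla2g15 between −0.70 and −0.42. The call of Pla2g6 was lost without any 1 of MI rats 3, 4 and 5, iCarP+/Light+ rats 2, 4 and 5 and Sham rats 1 and 5 (adjusted p up to 0.126, edgeR). It was also lost under 7 of 9 other alternatives (adjusted p = 0.0583 to 0.421), with a value of 0.17 with total counts alone, and was kept by DESeq2 and limma-voom. That of Pla2g15 was lost without any 1 of MI rats 1, 4 and 5 or of the 4 iCarP+/Light+ rats (adjusted p up to 0.11, edgeR). Lta4h, which makes leukotriene B4, had a log2 fold change of 1.21 from Sham to MI (adjusted p = 1.64e-05, edgeR) and of 0.47 from MI to iCarP+/Light+ (adjusted p = 0.0567, edgeR), a difference that passed the test without iCarP+/Light+ rat 1 (0.56, adjusted p = 0.019) or rat 4 (0.55, adjusted p = 0.0411) and was 0.21 (adjusted p = 0.296) without rat 5. Ltc4s, which makes leukotriene C4, fell from Sham to MI (log2 −2.61, adjusted p = 9.64e-05, edgeR) and had −0.82 from MI to iCarP+/Light+ (adjusted p = 0.276, edgeR). It held 4.55 to 7.22 CPM in Sham rats, 0.670 to 1.51 CPM in MI rats and 0.211 to 1.09 CPM in iCarP+/Light+ rats. Lta4h and Ltc4s were singled out after their values had been seen, as were Ptges2 and Ptges3.

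**Figure D4:**
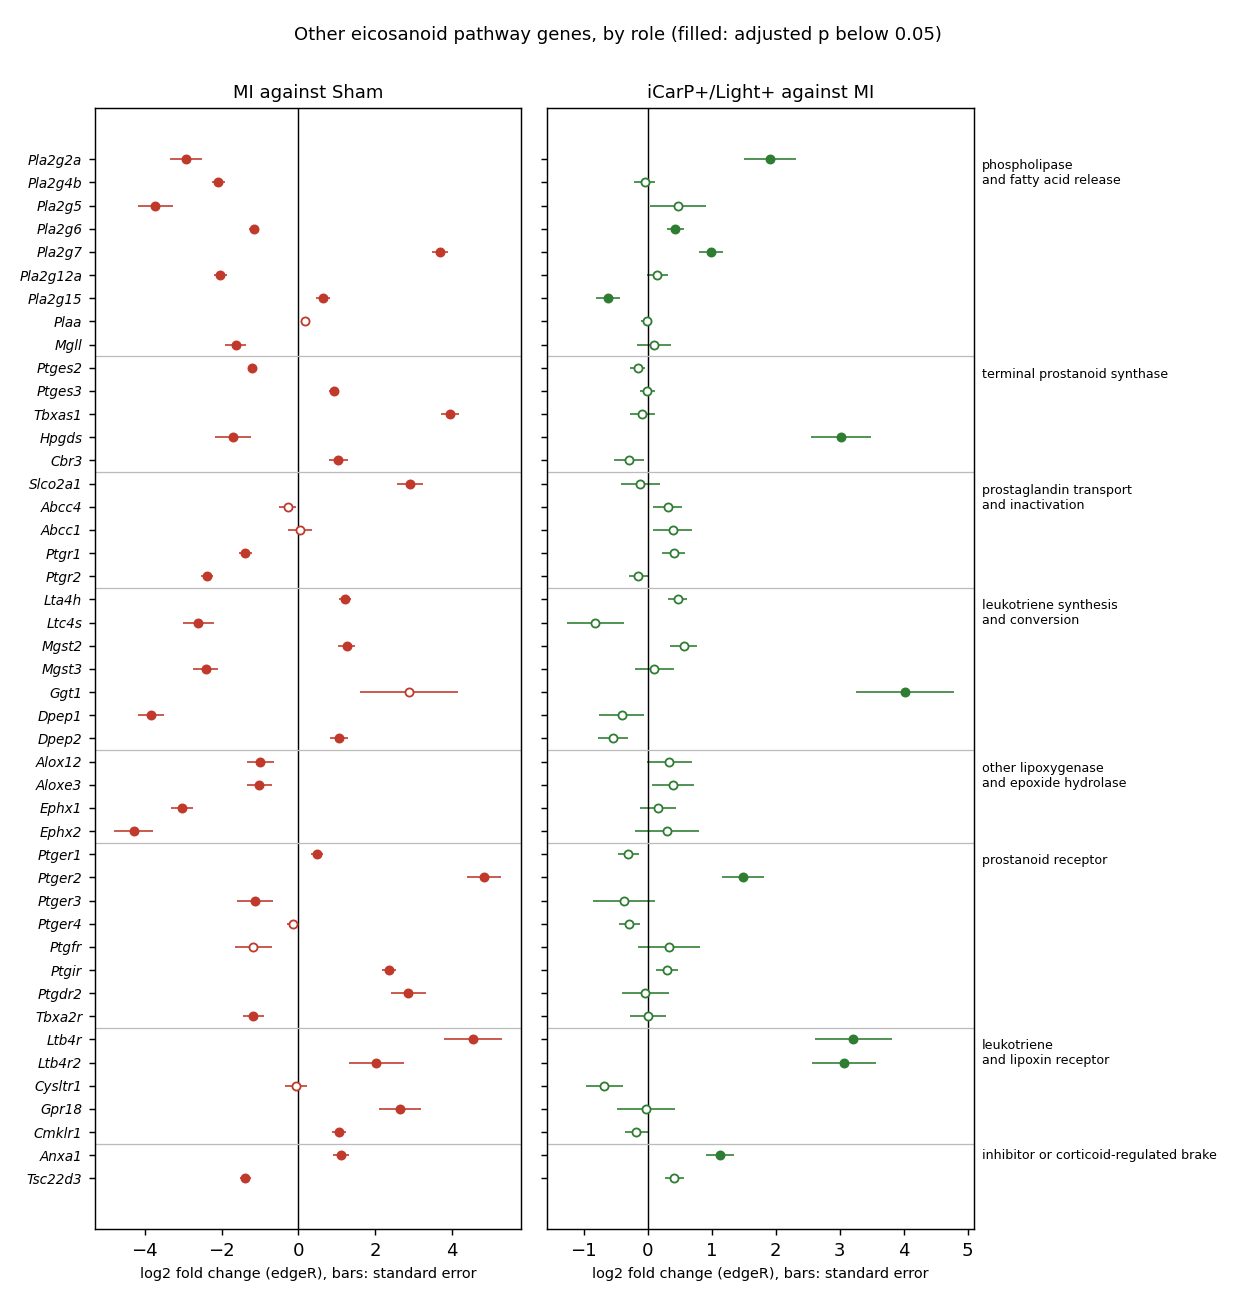
Log2 fold change of the 45 tested pathway genes from Sham to MI (left) and from MI to iCarP+/Light+ (right), grouped by role, with the standard error as bars and filled symbols where the adjusted p of edgeR was below 0.05. On the right 10 symbols are filled, the receptors Ltb4r, Ltb4r2 and Ptger2 among them, and the horizontal axes differ between the panels.

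Markers of leukocytes that express several of these genes moved with some of them. All 8 tested neutrophil markers rose from Sham to MI and all 8 rose again from MI to iCarP+/Light+, against 30.2% and 11.6% of all genes. The 10 listed neutrophil markers summed to 7.73 to 12.6 CPM in Sham rats, 329 to 638 CPM in MI rats and 2236 to 6730 CPM in iCarP+/Light+ rats, and Mpo had 0 counts in all Sham and MI rats and 1 count in 1 iCarP+/Light+ rat. S100a8, a neutrophil alarmin, rose by 3.37 on the log2 scale from MI to iCarP+/Light+ (SE 0.38, adjusted p = 7.18e-05, edgeR) and Csf3r, the receptor for granulocyte colony-stimulating factor, by 2.67 (SE 0.31, adjusted p = 9.17e-05, edgeR). These values stand beside the rises of Ptgs2, Ptges, Alox5ap, Alox5 and Ltb4r, and their part in those rises was not tested. From Sham to MI, Alox5 had fallen (log2 −0.80, adjusted p = 0.0104, edgeR) while the neutrophil sum rose. In the iCarP+/Light+ group the neutrophil sum was 2236, 5597, 4020 and 6730 CPM in rats 1, 2, 4 and 5. Alox5ap, Alox5 and Ltb4r followed that order in full, and Ptgs2 was highest in rat 5 as well, but Ptgs2 was lowest and Ptges highest in rat 2. In MI rats 1, 3, 4 and 5 the sum was 401, 329, 638 and 509.8 CPM. Ltb4r followed that order in full, and Alox5ap was lowest in rat 3 and highest in rat 4, whereas Ptgs2 and Ptges were highest in rat 3 and Alox5 was highest in rat 1.

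Monocyte and macrophage markers took another course. Of 9 tested, 7 rose from Sham to MI (30.2% of all genes), and from MI to iCarP+/Light+ 1 rose (11.6%) and 2 fell (2.01%). Their sum was 416 to 655 CPM in Sham rats, 3806 to 6878 CPM in MI rats and 3021 to 4960 CPM in iCarP+/Light+ rats, and Cd68 had a log2 fold change of −0.39 (adjusted p = 0.327, edgeR) from MI to iCarP+/Light+. Lyz2 was the largest part of that sum, with means of 211, 4061 and 2964 CPM. In the latter comparison Adgre1 was the marker that rose (log2 1.19), and Ms4a7 (−2.16) and C1qa (−0.99) fell. The values of these markers stand beside the rises of Pla2g4a, Alox5ap and Tbxas1 from Sham to MI, and their part was not tested. Eosinophil markers summed to 1.37 to 4.16 CPM in Sham rats, 6.28 to 23.1 CPM in MI rats and 33.6 to 63.7 CPM in iCarP+/Light+ rats, with 2 of 3 tested markers rising in each of the first 2 comparisons (30.2% and 11.6% of all genes). Siglec5 made up most of that sum (means of 1.99, 15.2 and 47.4 CPM), whereas the granule genes Epx, Prg2 and Prg3 had means of at most 0.182 CPM in any group and were not tested, and Ear1 was at 0 in all Sham and all MI rats. Mast cell markers, which stand beside Hpgds and Ltc4s, summed to 78.0 to 172, 72.4 to 92.6 and 81.4 to 102 CPM. Of 9 tested 3 fell from Sham to MI (33.6% of all genes) and 1 rose from MI to iCarP+/Light+ (11.6% of all genes). Kit was the largest part of that sum (means of 49.3, 54.9 and 68.9 CPM) and was not called. Those that fell were Cpa3 (means of 10.7 to 4.22 CPM), Tpsb2 (7.32 to 2.59 CPM) and Mcpt1l1 (26.6 to 5.91 CPM). Hdc was the marker that rose (1.47 to 8.41 CPM). Platelet markers, which stand beside Ptgs1 and Tbxas1, summed to 21.6 to 37.4, 76.0 to 239 and 99.6 to 241 CPM, and 1 of 5 tested rose in each of the first 2 comparisons (30.2% and 11.6% of all genes). Most of that sum was Pf4, with means of 20.2, 127 and 135 CPM, and Itga2b had means of 5.12, 5.30 and 9.77 CPM. The marker that rose from MI to iCarP+/Light+ was Gp6, from a mean of 0.316 to 1.17 CPM. Gp1bb was at 0 in all Sham and all MI rats. The part of eosinophil, mast cell and platelet markers in these results was not tested. Of the markers of resident tissue cells, 8 of 10 fibroblast, 7 of 9 endothelial and all 9 cardiomyocyte markers fell from Sham to MI (33.6% of all genes), beside the falls of Ptgds, Alox15 and Alox5, and their part in those falls was not tested.

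**Figure D5:**
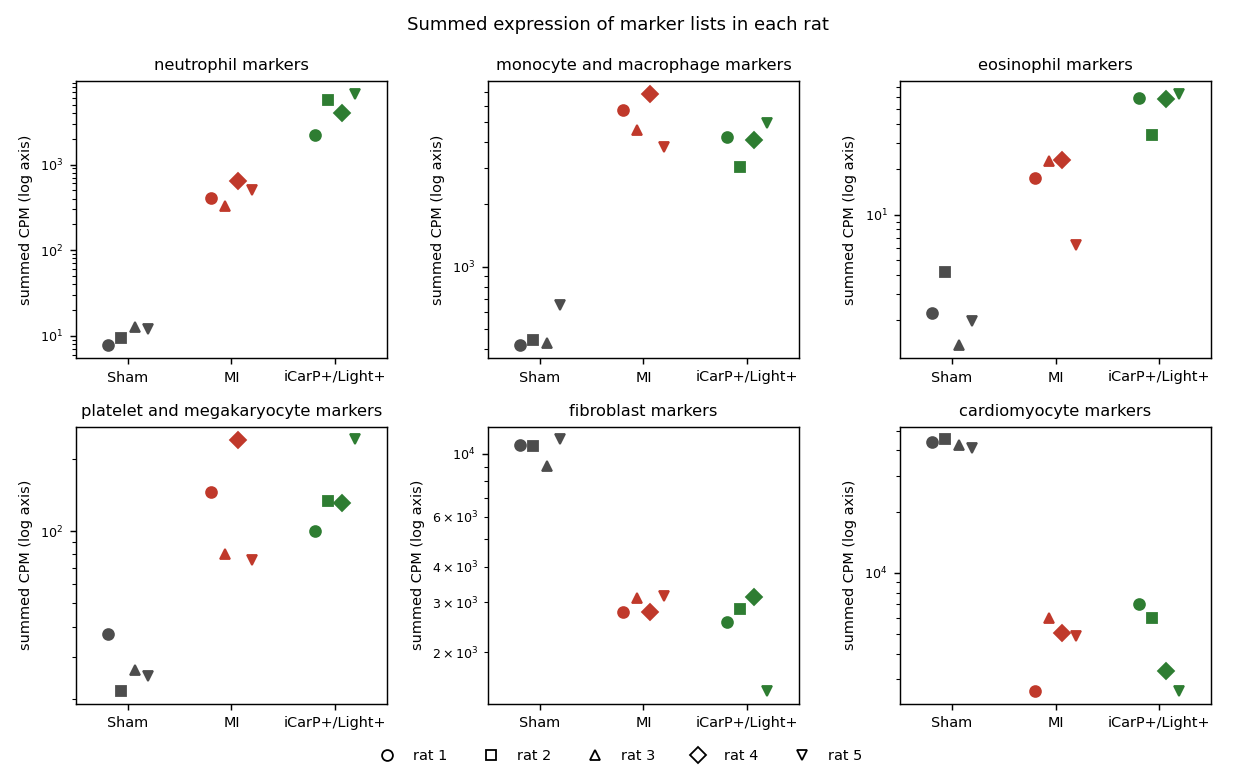
Summed CPM of 6 marker lists in each rat on log axes that differ between panels, with symbols for the rat number and colours for the group. The neutrophil sum separates the 3 groups (7.73 to 12.6, 329 to 638 and 2236 to 6730 CPM), as Ptgs2 and Alox5ap do, whereas the monocyte and macrophage sums of MI and iCarP+/Light+ rats overlap.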

How the data were processed

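RNA-seq of the LV of 12 rats was used, 4 per group. Tissue was extracted with Trizol and libraries were made with a NEBNext Ultra kit. The authors deposited whole-number counts of reads per gene for each rat, without normalization. The submitters' processing notes name HISAT2, featureCounts and the rn6 build, and the strand setting and annotation release are not given in the sources used here. No listed gene overlaps any of the 9 genes described.

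The analysis used edgeR 4.0.16 in R 4.3.3. The filterByExpr function, given the 3 groups and a minimum count of 10, chose the genes tested. After TMM scaling, the quasi-likelihood fit took all 12 rats with a mean for each group, so that the groups share 1 estimate of the spread. The SE is the log2 fold change divided by the square root of F and edgeR's default prior count was kept. CPM and RPKM were computed from the deposited counts and gene lengths. No molecular identifiers were used, so the floor of 3 counts allows for counting error alone. For the 18 pairs of rats within groups, chi-square divided by the number of genes lay between 13.96 and 111, against 1 for counting noise. The method was tested on simulated data.

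The genes described and the lists were chosen with earlier results of these data known. Of the other pathway genes, the text names every one called from MI to iCarP+/Light+ and the 5 highest and 5 lowest called from Sham to MI. Ptgis had no row and is not analysed here. Of 13 marker lists, those of smooth muscle, epicardial, lymphocyte and resident macrophage cells are given in the closing section.

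Same-numbered rats of different groups are different animals, and their deviations from the group means (log2 CPM, prior count 2) correlated at −0.15 to 0.07, so no replicate block was used in the test reported. Alternatives were DESeq2 size factors, total counts alone, DESeq2 1.42.0, limma-voom (limma 3.58.1), no filter beyond 1 count, at least 10 counts in every sample, no mitochondrial genes, only the rats compared, a replicate block, and each rat left out. Plots were drawn with matplotlib 3.10.9.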

Additional observations from a re-analysis of the deposited data

Results flagged for a closer look

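Single rats that stood apart from the other 3 of their group were looked for in the genes whose fold changes are given here, by the gap to the nearest rat divided by the range of the group, over 96 groups. A ratio above Dixon's critical value occurs by chance in about 1 of 20 groups, and 6 groups passed it where 4.8 would be expected. Pla2g4a in iCarP+/Light+ rat 5 had a ratio of 0.830, with 36.5 CPM against 22.3 to 24.3 CPM in the other 3 rats. Pla2g2a in MI rat 3 had 0.831, with 11.7 CPM against 3.88 to 4.68 CPM. Ptges3 in iCarP+/Light+ rat 4 had 0.852, with 256 CPM against 235 to 238 CPM. In Sham rats, Tbxas1 had 0.915 (rat 5, 1.99 CPM against 3.40 to 3.57 CPM), Ephx1 0.908 (rat 3, 44.9 CPM against 54.0 to 55.0 CPM) and Ephx2 0.903 (rat 5, 65.0 CPM against 41.3 to 43.1 CPM).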

How the results depend on the processing

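Ptgs2, Ptges and Alox5ap passed the test in the same direction in all 3 comparisons under every alternative in which they could be tested. From MI to iCarP+/Light+ their log2 fold changes ranged over 4.96 to 5.67, 4.75 to 5.47 and 1.06 to 1.59. Ptges could not be tested with at least 10 counts in every sample, nor from Sham to MI with only those rats. Over the 9 genes and 3 comparisons, 225 of 233 values under the other alternatives and 315 of 324 with a rat left out had the direction and the call reported above. Of the other genes whose fold changes are given, 263 of 276 values and 363 of 384 with a rat left out did. Of the values with no call, Hpgd from Sham to MI ranged from −0.40 to 0.78 with a rat left out, Alox5 from Sham to iCarP+/Light+ from −0.11 to 0.31 and Alox15 in that comparison from −0.92 to 0.051, and Alox15 there was 0.000122 with total counts alone. Ptges3 from MI to iCarP+/Light+ ranged from −0.082 to 0.10 with a rat left out and was 0.012 with limma-voom and 0.011 with the replicate block. The genes called from MI to iCarP+/Light+ numbered 2051, 3926 with total counts alone (1204 higher and 2722 lower) and 1298 with a replicate block. The share of rises among them was 85.2%, 70.8% with DESeq2 and 72.4% with a minimum of 10 counts in every sample. The other pathway genes called there numbered 10, but 4 when 10 counts were required in every sample, where fewer genes were tested. The causes of the other changes were not tested. Alox5 from MI to iCarP+/Light+ lost its call with the replicate block (0.96, adjusted p = 0.0691, edgeR). The block also took the calls of Pla2g6 (0.33, adjusted p = 0.172), Pla2g15 (−0.64, adjusted p = 0.0532) and Ptger2 (1.34, adjusted p = 0.08). The block stands for a shared number, not a shared animal. Ptgs1 from Sham to iCarP+/Light+ was called with total counts alone (0.77, adjusted p = 0.0187), where all genes had a median of 0.33. Cd68 was called lower from MI to iCarP+/Light+ with total counts alone (−0.66, adjusted p = 0.0475), as was Ptges2 (−0.42, adjusted p = 0.0342), where all genes had a median of −0.25. Low counts limit Hpgd in all groups, Ptgds and Hpgds in MI rats, Ltc4s in MI and iCarP+/Light+ rats, Ggt1 and Ltb4r2 in Sham and MI rats and Ptges in Sham rats.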

Other observations

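The remaining marker lists gave these values, beside 30.2% of all genes that rose and 33.6% that fell from Sham to MI. From MI to iCarP+/Light+ 11.6% of all genes rose and 2.01% fell. Resident macrophage markers summed to 764 to 851 CPM in Sham, 635 to 949 CPM in MI and 478 to 602 CPM in iCarP+/Light+ rats, and of 6 tested 4 rose and 1 fell from Sham to MI and 2 fell from MI to iCarP+/Light+. The marker that fell from Sham to MI was Gas6 (means of 573, 117 and 107 CPM), which made up most of the Sham sum. Among those that rose there, Mrc1 had means of 56.3, 248 and 122 CPM and Folr2 of 17.6, 85.4 and 46.9 CPM. Lymphocyte markers summed to 15.6 to 23.3, 19.8 to 34.0 and 17.02 to 22.4 CPM, and of 9 tested 3 rose from Sham to MI and 1 fell from MI to iCarP+/Light+. Smooth muscle and pericyte markers summed to 2934 to 3396, 2896 to 3477 and 2011 to 3005 CPM, and of 10 tested 1 rose and 3 fell from Sham to MI and none was called from MI to iCarP+/Light+. Most of that sum was Des, with means of 2074, 2520 and 1979 CPM. Those that fell from Sham to MI were Rgs5 (means of 309 to 53.8 CPM), Myh11 (99.2 to 28.3 CPM) and Kcnj8 (82.5 to 60.4 CPM), and Cnn1 rose (2.06 to 6.57 CPM). Epicardial and mesothelial markers summed to 36.6 to 49.0, 11.1 to 20.8 and 13.1 to 24.3 CPM, and of 3 tested 1 fell from Sham to MI.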
